A study of Mus musculus with 6 samples.

Results

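The 8 unclustered protocadherin genes described here, the delta protocadherins Pcdh1, Pcdh7, Pcdh9, Pcdh10, Pcdh17, Pcdh18 and Pcdh19 and the endothelial Pcdh12, were followed in RNA from liver endothelial cells (ECs) of young and aged mice. They were chosen by name, as 8 of the 24421 gene symbols in the count table, after their levels in the ages compared here were known, so their differences between the ages are given as a description with no test. The young group held 3 female wild-type C57BL/6J mice aged 10 weeks and the aged group 3 female wild-type C57BL/6J mice aged 127, 131 and 136 weeks, with no treatment named for either group and 1 RNA-seq library per mouse. ECs were sorted from dissociated livers as CD31+CD45- cells, a gate that takes sinusoidal, large-vessel and lymphatic ECs together. Mice with liver or spleen enlargement or visible tumours had been left out by the study. The libraries held 23001556 to 31651817 counts, and 7 of the 8 genes had enough counts to enter the fit over 14612 genes. Pcdh10 did not.

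Protocadherins are single-pass membrane proteins of the cadherin superfamily, with a row of cadherin repeats outside the cell, weak adhesion to like molecules on the next cell, and cytoplasmic tails that do not bind beta-catenin as those of classical cadherins do. One subgroup of the delta protocadherins, which includes Pcdh1, Pcdh7 and Pcdh9, carries a tail motif that binds protein phosphatase 1, whereas the tails of Pcdh10, Pcdh17, Pcdh18 and Pcdh19 recruit the WAVE complex, which drives actin branching. Pcdh12, also called VE-cadherin 2, is the protocadherin best known from the endothelium, where it sits at cell junctions without binding catenins, and most of what is known of the delta members comes from neurons.

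The start-site windows of Pcdh9 and Pcdh7, the pair whose levels in the aged mice lay wholly above the young ones, are printed beside that of Pcdh17, the member whose level was nearest to equal in both ages. Each runs from 250 bases before the annotated start to 50 bases after it, 5′ to 3′ on the strand of the gene, from RefSeq on GRCm38.p6, which is another build than that of the counts, and capitals mark CG dinucleotides.
Pcdh9 (chr14:93890630-93890929, minus strand): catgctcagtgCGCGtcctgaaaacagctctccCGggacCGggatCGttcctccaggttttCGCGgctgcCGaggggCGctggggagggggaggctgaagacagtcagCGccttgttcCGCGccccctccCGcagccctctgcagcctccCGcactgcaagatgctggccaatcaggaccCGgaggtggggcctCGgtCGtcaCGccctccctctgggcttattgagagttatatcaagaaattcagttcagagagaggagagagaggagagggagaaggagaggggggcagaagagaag
Pcdh7 (chr5:57717831-57718130, plus strand): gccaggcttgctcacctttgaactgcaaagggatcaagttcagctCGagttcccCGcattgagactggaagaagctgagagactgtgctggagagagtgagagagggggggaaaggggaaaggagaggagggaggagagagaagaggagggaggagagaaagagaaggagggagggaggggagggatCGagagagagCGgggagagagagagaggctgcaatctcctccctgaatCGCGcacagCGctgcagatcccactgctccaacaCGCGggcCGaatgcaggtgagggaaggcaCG
Pcdh17 (chr14:84443313-84443612, plus strand): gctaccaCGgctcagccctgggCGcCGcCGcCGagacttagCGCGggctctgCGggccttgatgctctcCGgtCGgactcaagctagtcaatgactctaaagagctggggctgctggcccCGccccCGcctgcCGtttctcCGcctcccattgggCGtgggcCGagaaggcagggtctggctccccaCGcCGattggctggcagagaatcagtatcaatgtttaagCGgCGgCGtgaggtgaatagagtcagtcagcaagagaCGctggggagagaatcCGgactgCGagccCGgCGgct
The Pcdh9 window holds 18 CG dinucleotides, that of Pcdh7 11 and that of Pcdh17 26, against a median of 7 over 32851 mouse start-site windows of 300 bases. Another annotated start of Pcdh9, not printed, gave a window with 19. Windows were matched for 6 members, and not for Pcdh1 or the endothelial Pcdh12, so nothing below covers these. Across the 6, GC content ran from 59.3% to 67.7%, against a median of 52.7% over all windows. On either strand, none of the 6 held the TATA-box letters TATAAA, which 13.6% of all windows hold, or GGAAGT, letters bound by ETS factors, which 23.8% hold. The Sp1 letters GGGCGG, found in 35.7% of all windows, stood in Pcdh10, Pcdh17, Pcdh18 and Pcdh19 and not in Pcdh7 or Pcdh9. These matches describe the letters and not a bound site.

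The 8 genes lie apart from the large protocadherin cluster of mouse chromosome 18 and each has a promoter of its own. In the GENCODE annotation of mm9, the build of the deposited values, they span from 14.0 kb for Pcdh18 (chr3:49547218-49561238, minus strand) to 873 kb for Pcdh9 (chr14:93414731-94287951, minus strand). Pcdh7 (chr5:58109260-58520590, plus strand) spans 411 kb, Pcdh17 (chr14:84843370-84936867, plus strand) 93.5 kb, Pcdh10 (chr3:45182320-45238488, plus strand) 56.2 kb and Pcdh19 (chrX:130117402-130223532, minus strand) 106 kb. Pcdh1 (chr18:38345569-38371707, minus strand) and Pcdh12 (chr18:38426746-38444055, minus strand) are near neighbours on the same strand, 55.0 kb apart. All 8 have the layout typical of the family, in which 1 large exon holds most of the coding sequence, between 62.5% of it in Pcdh19 and 85.2% in Pcdh10. No 75-base window of their protein-coding transcripts, the length of the reads, occurred in a protein-coding transcript of another gene. Reads of the 8 are therefore not shared with a near copy there. Pcdh1 and Pcdh19 are overlapped on the other strand by 2010320O07Rik and Gm16795, and the library kit does not mark strand. Within the span of Pcdh9 an annotated U1 small RNA gene lies on the same strand.

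In young liver ECs, Pcdh12 was the most abundant of the 8 per unit of length, at 50.4 ± 17.2 FPKM (the deposited fragment counts scaled for transcript length and library size; SD, n = 3), followed by Pcdh17 at 11.2 ± 1.58 FPKM and Pcdh1 at 3.77 ± 0.811 FPKM. These first 3 steps down the order did not overlap between mice. Pcdh7 followed at 0.885 ± 0.441 FPKM and Pcdh9 at 0.770 ± 0.359 FPKM, and from Pcdh7 down to Pcdh18, Pcdh19 and Pcdh10 each neighbour overlapped the next. Among the genes of the fit, the young mean of Pcdh12 stood at percentile 87.6, that of Pcdh17 at 60.8 and that of Pcdh9 at 21.3. In aged ECs Pcdh12 still stood first, at 30.5 ± 14.2 FPKM. Below it the order closed up, with Pcdh17 at 10.2 ± 1.097, Pcdh1 at 8.37 ± 5.06, Pcdh9 at 5.02 ± 2.11 and Pcdh7 at 2.91 ± 1.40 FPKM, each overlapping its neighbour, and Pcdh9 stood at percentile 44.4.

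**Figure D1:**
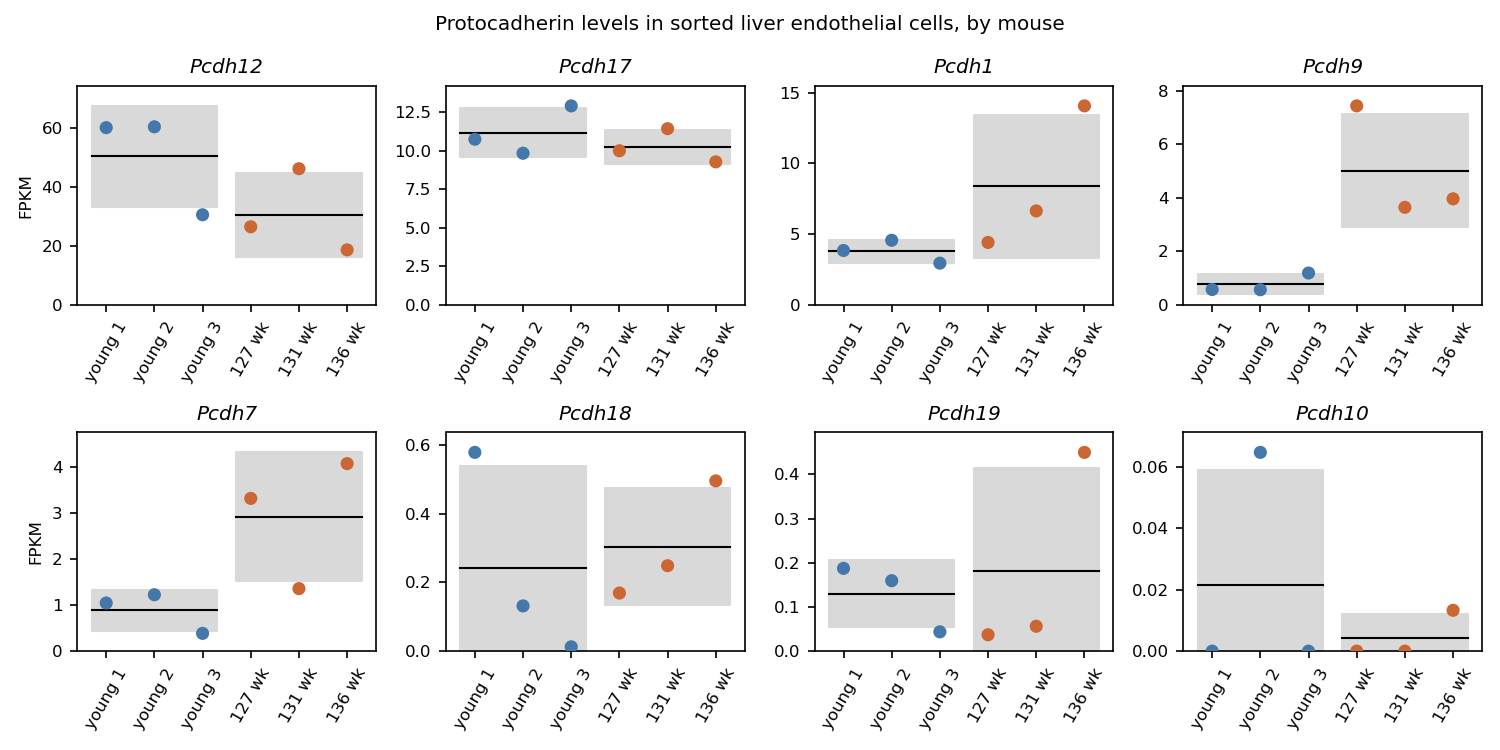
FPKM of the 8 protocadherins in each mouse, with young mice in blue and aged mice in orange; lines mark the mean of 3 mice and grey bands 1 SD either side, cut at 0, and each panel has its own scale. The aged points of Pcdh9 (3.64 to 7.44 FPKM) and Pcdh7 (1.36 to 4.07 FPKM) lie above all young points, and the other 6 genes overlap.

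Pcdh12, the endothelial member, was read in the 3 young mice at 337, 339 and 168 CPM (counts relative to the library total, scaled with TMM factors for library composition) and in the 127-, 131- and 136-week mice at 147, 259 and 105 CPM. The means were 281 ± 98.3 CPM in young and 170.2 ± 80.1 CPM in aged ECs. The ages overlapped, because young replicate 3 stood below the 131-week mouse and the lowest value came from the 136-week mouse. On the log2 scale the fitted difference, aged against young, was -0.72 (SE 0.39), at percentile 5.17 of the differences of all 14612 genes, and it ran from -1.16 without the 131-week mouse to -0.47 without the 136-week mouse. VE-cadherin itself, the product of Cdh5 and the main adhesive protein of endothelial junctions, was listed at 117, 119 and 91.1 FPKM in young and at 62.0, 102 and 117 FPKM in aged ECs. The ratio of Pcdh12 to Cdh5 was 0.516, 0.507 and 0.336 in young and 0.427, 0.451 and 0.159 in aged mice, so that the 136-week mouse had the least Pcdh12 while its Cdh5 was among the highest.

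Pcdh17, a WAVE-binding member, was the steadiest of the 8, with 105, 95.8 and 124 CPM in the young and 96.6, 111 and 90.7 CPM in the 127-, 131- and 136-week mice. The coefficient of variation was 13.1% among young and 10.7% among aged mice, and the ages overlapped over most of their range. Its log2 difference was -0.12 (SE 0.16) and stayed between -0.21 and -0.0091 when any 1 mouse was left out. Pcdh17 lies on the same chromosome as Pcdh9, which differed between the ages by the widest margin of the 8.

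Pcdh18 and Pcdh19, other WAVE-binding members, were near the lower limit of these libraries, where 3 counts equal 0.0948 to 0.130 CPM. Pcdh18 had 80, 15 and 2 counts in the young and 25, 33 and 64 counts in the 127-, 131- and 136-week mice. Pcdh19, which is X-linked and known from a female-limited epilepsy, had 52, 37 and 14 counts in the young and 11, 15 and 115 counts in the aged mice. In both genes the spread within an age was as wide as that between the ages. The log2 difference was 0.35 (SE 1.09) for Pcdh18 and 0.48 (SE 1.02) for Pcdh19, and for both its sign depended on single mice, since without the 136-week mouse Pcdh18 stood at -0.21 and Pcdh19 at -1.48. Without young replicate 1 the value of Pcdh18 was 2.12. Pcdh10, an adhesion protein of brain circuits, had 6 counts in young replicate 2, 3 counts in the 136-week mouse and 0 in the other 4 mice, of which each allows up to 3 counts, so no fold is given.

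Pcdh9, of the phosphatase-binding subgroup, was read at 3.46, 3.52 and 6.78 CPM in the young and at 43.7, 21.97 and 24.2 CPM in the 127-, 131- and 136-week mice. All aged mice stood above all young ones, and the lowest aged value was over that of young replicate 3, the highest young one, by more than the whole spread of the young group. The mean was 6.54 times higher in aged ECs (4.59 ± 1.90 against 29.98 ± 11.96 CPM). The log2 difference was 2.70 (SE 0.39), at percentile 98.1 of all genes, and between 2.33 and 3.10 when any 1 mouse was left out. Pcdh9 is among the genes that the study itself picked out, but from these same libraries, so that choice is no separate evidence.

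Pcdh7, which binds protein phosphatase 1 and the phosphatase inhibitor Set, was read at 6.47, 7.17 and 2.62 CPM in the young and at 20.3, 8.59 and 24.9 CPM in the 127-, 131- and 136-week mice. The ages did not overlap, but the 131-week mouse lay only just above young replicate 2. The mean was 3.31 times higher in aged ECs (5.42 ± 2.45 against 17.9 ± 8.42 CPM), with a log2 difference of 1.73 (SE 0.50) that ran from 1.40 to 2.06 when any 1 mouse was left out.

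Pcdh1, known from airway epithelium and from vascular endothelium as an entry receptor of New World hantaviruses, was read at 14.7, 17.6 and 11.2 CPM in the young and at 16.9, 25.7 and 54.7 CPM in the 127-, 131- and 136-week mice. The 127-week mouse fell within the young range, the 131-week mouse lay above it, and the 136-week mouse was highest. The log2 difference of 1.16 (SE 0.43) rested in large part on that mouse and was 0.56 without it. Its neighbour Pcdh12 had its lowest value in the same 136-week mouse.

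Of the 7 members in the fit, 5 stood higher and 2 lower in aged ECs by the fitted value, and the median of the 7 log2 differences was 0.48, beside 0.0098 over all 14612 genes, of which 51.1% stood higher. The members without overlap between the ages were 2 of the 7, Pcdh7 and Pcdh9, both higher in aged ECs, where 17.9% of all genes did not overlap, 9.62% with aged higher and 8.33% with aged lower. Since the members were chosen on this contrast, nothing is read from these counts. With edgeR's quasi-likelihood test no gene of the 14612 passed an adjusted p of 0.05 (0.00%), 1847 genes (12.6%) had an unadjusted p under 0.05, 8.32% higher and 4.32% lower in aged ECs (1216 and 631 genes, or 1430 and 423 with scaling by library totals only), and DESeq2 called 639 of 13979 genes (4.57%), 3.46% higher and 1.11% lower.

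**Figure D2:**
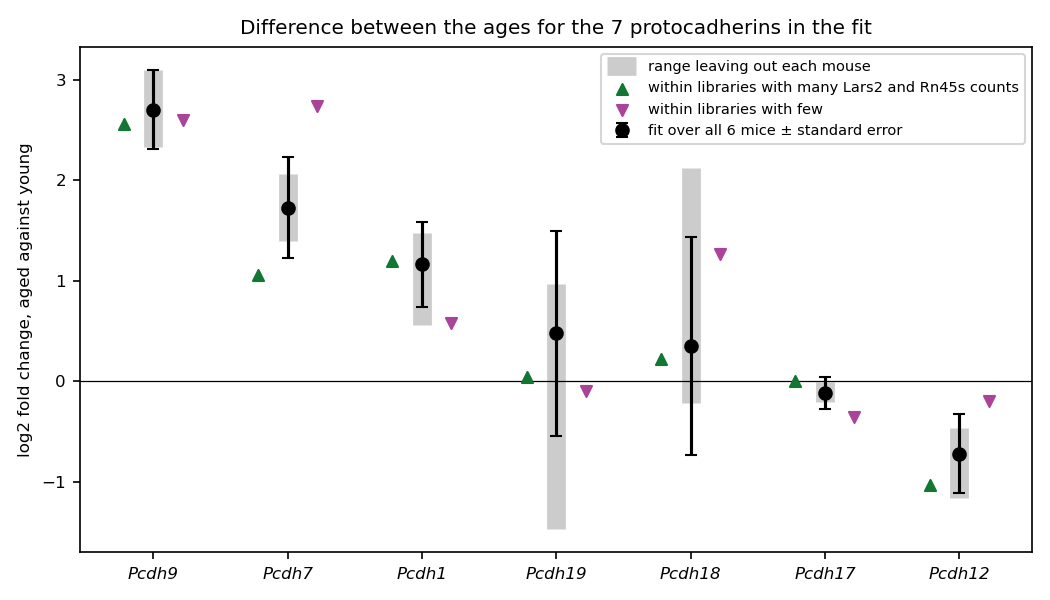
Log2 difference, aged against young, for the 7 protocadherins in the fit, with black points and bars for the fitted value and its standard error, grey bars for the range when any 1 mouse was left out, and triangles for the difference of log2(CPM + 0.5) values within libraries of like Lars2 and Rn45s share. The grey bars of Pcdh9, Pcdh7 and Pcdh1 lie above 0 and that of Pcdh12 below it, while those of Pcdh18 and Pcdh19 cross 0.

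The make-up of the pool of the 8 genes is given as a description only, since the members were chosen on this contrast and shares of a sum move together. Summed over the 8, the level was 77.2, 77.0 and 48.0 FPKM in young and 51.8, 69.6 and 51.0 FPKM in aged ECs, and the ages overlapped. Pcdh12 gave 78.0%, 78.6% and 63.6% of the sum in young mice and 51.1%, 66.4% and 36.6% in the 127-, 131- and 136-week mice, and the ages overlapped. The phosphatase-binding members Pcdh1, Pcdh7 and Pcdh9 together gave 7.05%, 8.23% and 9.38% in young mice and 29.2%, 16.7% and 43.4% in aged mice, which did not overlap, at means of 8.22 ± 1.16% and 29.8 ± 13.3%. That share holds Pcdh7 and Pcdh9, the members without overlap on their own. In FPKM the same 3 genes summed to 5.44, 6.34 and 4.51 in young and 15.2, 11.6 and 22.1 in aged ECs. The 131-week mouse was nearest to the young mice on both counts, with the highest share of Pcdh12 and the lowest share of the 3 genes among the aged. Of these 3 genes, Pcdh9 stood highest in the 127-week mouse at 7.44 FPKM, and Pcdh1 in the 131- and 136-week mice at 6.63 and 14.1 FPKM. 

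**Figure D3:**
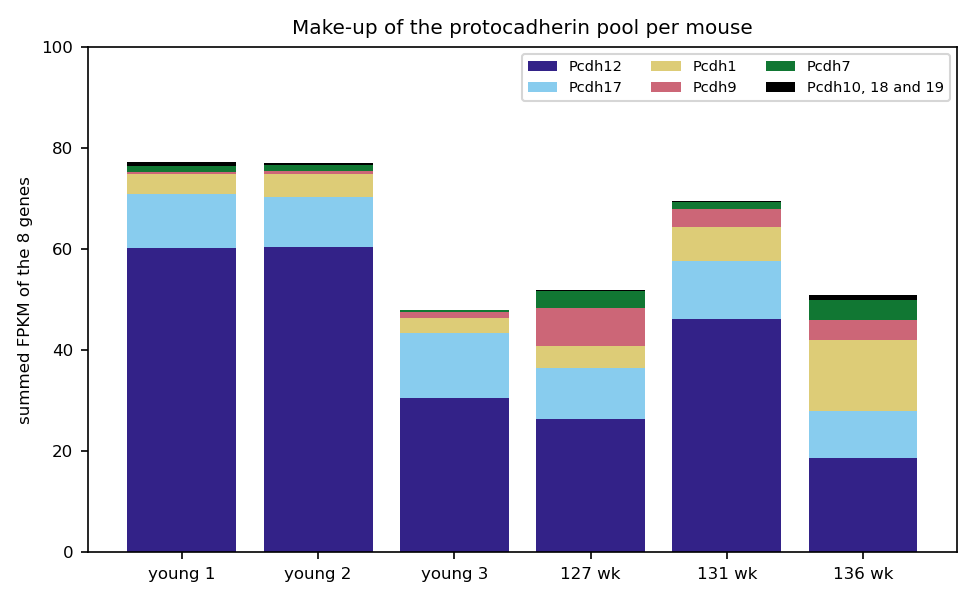
Stacked FPKM of the 8 protocadherins per mouse, young on the left and aged on the right. Pcdh12 makes up 63.6% to 78.6% of the sum in young mice and 36.6% to 66.4% in aged mice, and Pcdh1, Pcdh7 and Pcdh9 together take 7.05% to 9.38% and 16.7% to 43.4%.

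The libraries fell into 2 kinds by the share of counts on the mitochondrial leucyl-tRNA synthetase gene Lars2 and the ribosomal RNA gene Rn45s, lowest in the 127-week mouse (0.960%) and in young replicate 3 (1.29%) and 4.68% to 5.53% in the other 4 mice. Within the 4 libraries with the high share, the difference of mean log2(CPM + 0.5) values was 2.56 for Pcdh9, 1.06 for Pcdh7, 1.20 for Pcdh1 and -1.03 for Pcdh12. Between the pair with the low share it was 2.60 for Pcdh9, 2.74 for Pcdh7, 0.58 for Pcdh1 and -0.19 for Pcdh12. The 4 genes kept their sign in both kinds. Pcdh17, at 0.0054 and -0.35, and Pcdh19, at 0.042 and -0.10, did not keep theirs.

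Markers of several cell types moved with age in the same libraries. Summed markers of sinusoidal ECs stood at 16542 to 18443 CPM in young and 6233 to 11200 CPM in aged ECs, with 7 of the 8 genes lower, including Stab2 and Oit3. The 8 endothelial markers summed to 13353 to 14017 CPM in young and 9513 to 12320 CPM in aged ECs. By the fitted value 3 of these endothelial markers were higher and 5 lower, with a median log2 difference of -0.19. The defining Pecam1 and Cdh5 were present in every library. Large-vessel markers summed to 4464 to 6221 and 3837 to 6079 CPM, with 10 of the 12 genes higher by the fitted value. Without overlap stood 4 higher and 1 lower, where 9.62% and 8.33% of all genes did. DESeq2 called 2 higher and 1 lower, where it called 3.46% and 1.11% of all genes. The median log2 difference of the 12 was 0.045, beside 0.0098 over all genes. Lymphatic markers summed to 2041 to 3122 CPM in young and to 2890, 2042 and 5564 CPM in the 127-, 131- and 136-week mice, with Ccl21a at 0 throughout. Kupffer and myeloid markers stood at 53.9 to 86.8 CPM in young and at 195, 30.8 and 481 CPM in the aged, and T and NK cell markers at 0.158 to 1.31 and at 5.12, 0.583 and 27.2 CPM, so that the 136-week mouse was highest for both. Of the 8 T and NK cell genes, 7 were at 0 in some libraries, so these sums rest on few counts in most mice. The general leukocyte markers summed to 423 to 450 CPM in young and 305 to 541 CPM in aged ECs, a sum carried mostly by Arhgdib and Lcp1. By the fitted value 7 of the 8 genes were higher, with a median log2 difference of 2.14 over the 8. Of the 7, 5 had an unadjusted p under 0.05, 2 were called by DESeq2 and 1 did not overlap between the ages. Over all genes, 8.32% were higher and 4.32% lower at that unadjusted threshold. The 1 lower gene, at a log2 difference of -0.65, was under the unadjusted threshold, did not overlap and was called lower by DESeq2. B cell markers summed to 2.35 to 4.26 and 3.50 to 9.58 CPM, with Pax5 at 0 throughout.

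Stellate and mural markers summed to 158 to 535 CPM in young and 246 to 762 CPM in aged ECs, but 7 of the 12 genes were lower and 5 higher by the fitted value. Their median log2 difference was -0.56, and DESeq2 called 1 lower and 0 higher, where it called 1.11% and 3.46% of all genes. Cholangiocyte markers summed to 88.1 to 105 and 189 to 237 CPM, hepatocyte markers to 115 to 171 and 74.1 to 97.0 CPM, and mesothelial markers to 3.52 to 5.77 and 0.309 to 1.91 CPM. Schwann and glial markers summed to 2.71 to 3.13 and 4.32 to 9.10 CPM, with Sox10 and Gfra3 at 0 in some libraries. In bulk RNA, fewer cells of a type and less RNA per cell cannot be told apart. The part of these cell types in the levels of Pcdh1, Pcdh7, Pcdh9 and Pcdh12 was not tested.

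The genes whose levels ran most like those of the 3 most abundant members were found by the smallest root mean square difference of centred log2(CPM + 0.5) values over the 6 libraries, among 14611 genes. Nearest to Pcdh12 were the long non-coding RNA A330009N23Rik (0.0501), which had its highest value in young replicate 1 at 16.7 CPM and its lowest in the 136-week mouse at 4.63 CPM, and Neu3 (0.167), a membrane sialidase. Pcdh17 was nearest to 4930455G09Rik (0.0338), a transcript under 1 CPM in every library. Pcdh1 was nearest to Nr4a1 (0.105), an immediate-early nuclear receptor with 242, 282 and 213 CPM in the young and 283, 424 and 786 CPM in the aged mice, and to Fam83g (0.113), which was under 2 CPM throughout. The added 0.5 narrows differences between such low values. The fitted log2 difference was 2.31 for Fam83g beside 1.16 for Pcdh1, and -0.43 for 4930455G09Rik beside -0.12 for Pcdh17. With 6 libraries, such likeness is a description of this set only.

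A further 10 lists of related genes, 157 genes in all of which 119 were in the fit, were read beside the members. None of the 119 passed an adjusted p of 0.05 with edgeR's quasi-likelihood test. An unadjusted p under 0.05 was found for 15 (12.6%, beside 12.6% over all genes), with 11 higher and 4 lower in aged ECs. DESeq2 called 4 higher and 1 lower, where it called 3.46% and 1.11% of all genes. At the unadjusted threshold the 15 became 8 without the 136-week mouse, 3 higher and 5 lower, and 9 without young replicate 2, 6 higher and 3 lower, and limma on weighted counts gave 9 higher and 10 lower, so the balance of directions turned with the mice and the fit.

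The other delta protocadherins were low. Pcdh8 had 0.377 ± 0.193 CPM in young and 0.561 ± 0.318 CPM in aged ECs, Pcdh20 had 0.363 ± 0.417 and 1.22 ± 0.796 CPM, both overlapped between the ages, and Pcdh11x was not in the fit. Neither gene passed the unadjusted threshold.

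The promoters of the clustered protocadherins are chosen cell by cell in neurons. Among the beta genes, each a single exon, 21 were in the fit, with a median log2 difference of 0.020; 4 had an unadjusted p under 0.05, all higher in aged ECs, where 8.32% of all genes were, and 2 were called by DESeq2, where 3.46% of all genes were higher. Pcdhb9 (chr18:37560509-37563563) was read at 11.5, 11.9 and 7.29 CPM in the young and 29.2, 32.5 and 43.4 CPM in the aged mice. The ages did not overlap, and the log2 difference was 1.78 (SE 0.26), with an adjusted p of 0.177 in edgeR and 9.02e-07 in DESeq2. Pcdhb7 (chr18:37501356-37504861) stood at 8.83 ± 1.04 CPM in young and 17.2 ± 0.963 CPM in aged ECs, a log2 difference of 0.97 (SE 0.18) with an adjusted p of 0.194 in edgeR and 5.20e-04 in DESeq2. Pcdhb14, the most abundant beta gene in young ECs, overlapped between the ages at 35.9 ± 3.29 and 33.9 ± 1.55 CPM. Up to 4.05% of the 75-base windows of a beta gene occur in another gene, against none for the 8 members. Pcdhb9 is in the study's own selection, which was made from these same libraries and is no separate evidence.

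Of the 22 gamma genes in the fit, which share their last exons and can therefore share reads, 16 stood lower and 6 higher by the fitted value, with a median log2 difference of -0.13. Pcdhgb4 stood at 17.9 ± 2.46 CPM in young and 10.5 ± 0.491 CPM in aged ECs without overlap, at a log2 difference of -0.78 (SE 0.18), with an adjusted p of 0.235 in edgeR and 0.0107 in DESeq2. Pcdhga2 was the other gamma gene under the unadjusted threshold, at -0.81 (SE 0.30), and 4.32% of all genes were lower at that threshold. The ages did not overlap for 3 gamma genes, all lower, beside 8.33% of all genes lower in that way. Pcdhgc3, the most abundant, overlapped at 97.3 ± 18.3 and 77.0 ± 25.3 CPM. Among 14 alpha genes only Pcdhac2 was in the fit, through 1.71 CPM in the 136-week mouse. It was at 0 in the 131-week mouse and under 3 counts in each young mouse, so no fold is given, although its unadjusted p was under 0.05.

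**Figure D4:**
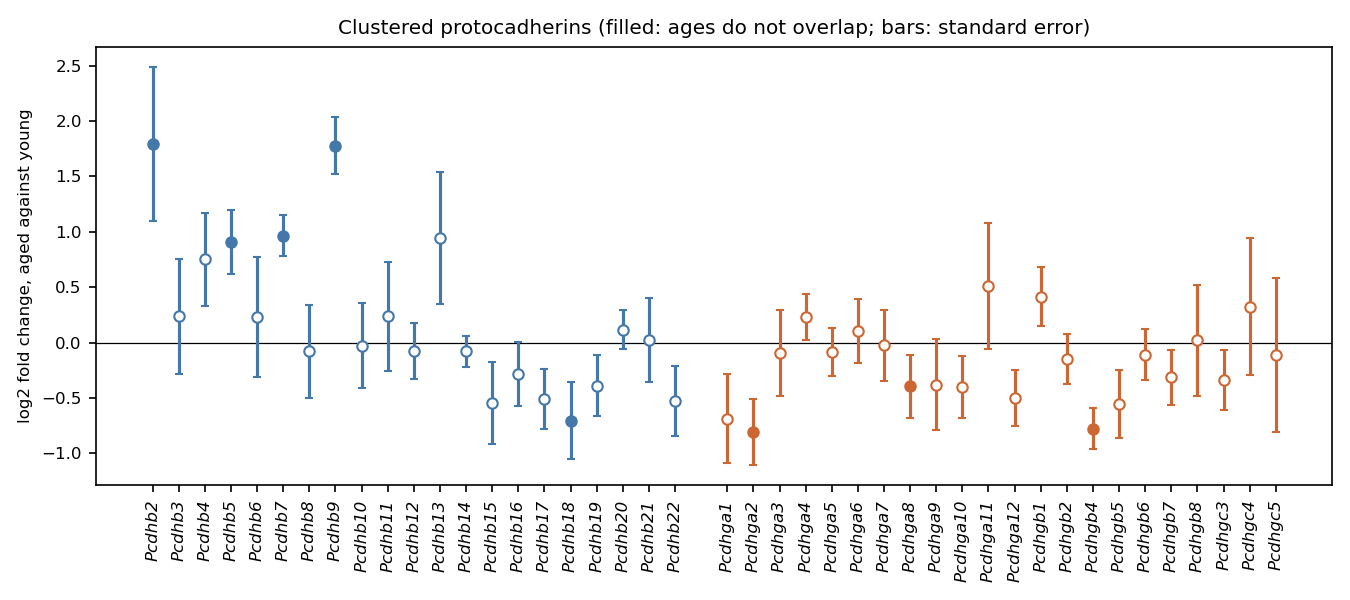
Log2 difference, aged against young, with its standard error for the 21 beta (blue) and 22 gamma (orange) clustered protocadherins in the fit, in name order; filled points are genes whose ages do not overlap. Beta genes run from -0.71 to 1.79 and gamma genes from -0.81 to 0.51, and the filled beta points are 4 higher and 1 lower while the 3 filled gamma points are lower. Over all genes, 9.62% are higher and 8.33% lower without overlap.

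Large and cadherin-related protocadherins had 13 genes in the fit, 3 with an unadjusted p under 0.05 higher and 1 lower in aged ECs. Over all genes, 8.32% were higher and 4.32% lower at that threshold. Clstn1, a calsyntenin of vesicle transport, did not overlap at 63.3 ± 18.6 and 141 ± 74.6 CPM (log2 difference 1.16, SE 0.40). Celsr1, a planar polarity receptor, stood at 3.03 ± 0.649 and 7.76 ± 3.98 CPM and overlapped. Fat4, which pairs with Dchs1 across cell contacts, was lower in aged ECs without overlap, at 58.7 ± 9.29 and 44.45 ± 4.13 CPM (log2 difference -0.40, SE 0.16), and Dchs1 overlapped at 159 ± 43.1 and 130.6 ± 24.4 CPM.

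Among 10 classical and related cadherins in the fit, 1 had an unadjusted p under 0.05, higher in aged ECs, where 8.32% of all genes were. Cdh19, a cadherin known from Schwann cells and one of the Schwann and glial markers above, stood at 0.112, 0.0451 and 0.505 CPM in the young and 2.61, 2.72 and 1.30 CPM in the aged mice, without overlap, at a log2 difference of 3.25 (SE 0.86), an adjusted p of 0.250 in edgeR and 0.00859 in DESeq2. Its young values rest on a few counts, and the log2 difference was 4.70 without young replicate 3 and 0.68 on log2(FPKM + 1). Cdh5 stood at 426 ± 65.2 and 369 ± 114 CPM (log2 difference -0.21, SE 0.26, and 0.026 without the 127-week mouse) and Cdh13, or T-cadherin, at 618.5 ± 12.5 and 577 ± 282 CPM, and both overlapped. None of the 5 catenins in the fit passed the unadjusted threshold, though Jup (plakoglobin) and Ctnnb1 were higher and Ctnnd1 lower in every aged mouse than in every young one. Over all genes, 9.62% stood higher and 8.33% lower in this way.

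Among partners of the cytoplasmic tails, 2 of 13 genes in the WAVE list and 1 of 15 other partners and enzymes had an unadjusted p under 0.05, beside 12.6% of all genes. In the WAVE list, Rac1 stood at 1067 ± 134 and 873 ± 167 CPM and Nckap1 at 386 ± 78.3 and 314 ± 48.0 CPM, both overlapping, while the genes under the unadjusted threshold were Nckap1l, the blood-cell form of Nckap1, and Cyfip2, a close relative of Cyfip1, both higher in aged ECs and both overlapping. Nckap1l stood at 0.670, 1.13 and 0.757 CPM in the young and 3.54, 0.933 and 8.97 CPM in the aged mice, at an adjusted p of 0.314 in edgeR and 0.0438 in DESeq2. The aged mice stood in the same order for Nckap1l as for the Kupffer and the T and NK cell sums. The general leukocyte sum ran in another order, at 305, 351 and 541 CPM, and a leukocyte source was not tested. The log2 difference of Nckap1l was 2.39 (SE 0.78), and 1.40 without the 136-week mouse. Among 15 other partners and processing enzymes, Fyn, a Src-family kinase, passed the unadjusted threshold at 509 ± 70.7 and 318 ± 76.6 CPM without overlap (log2 difference -0.68, SE 0.22, adjusted p = 0.306 in edgeR). Ppp1ca, which encodes a catalytic subunit of protein phosphatase 1, overlapped at 323 ± 33.8 and 279 ± 39.0 CPM. None of the 17 genes for CTCF, cohesin and repressors of the clustered genes passed the unadjusted threshold, and their median log2 difference was -0.019.

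**Figure D5:**
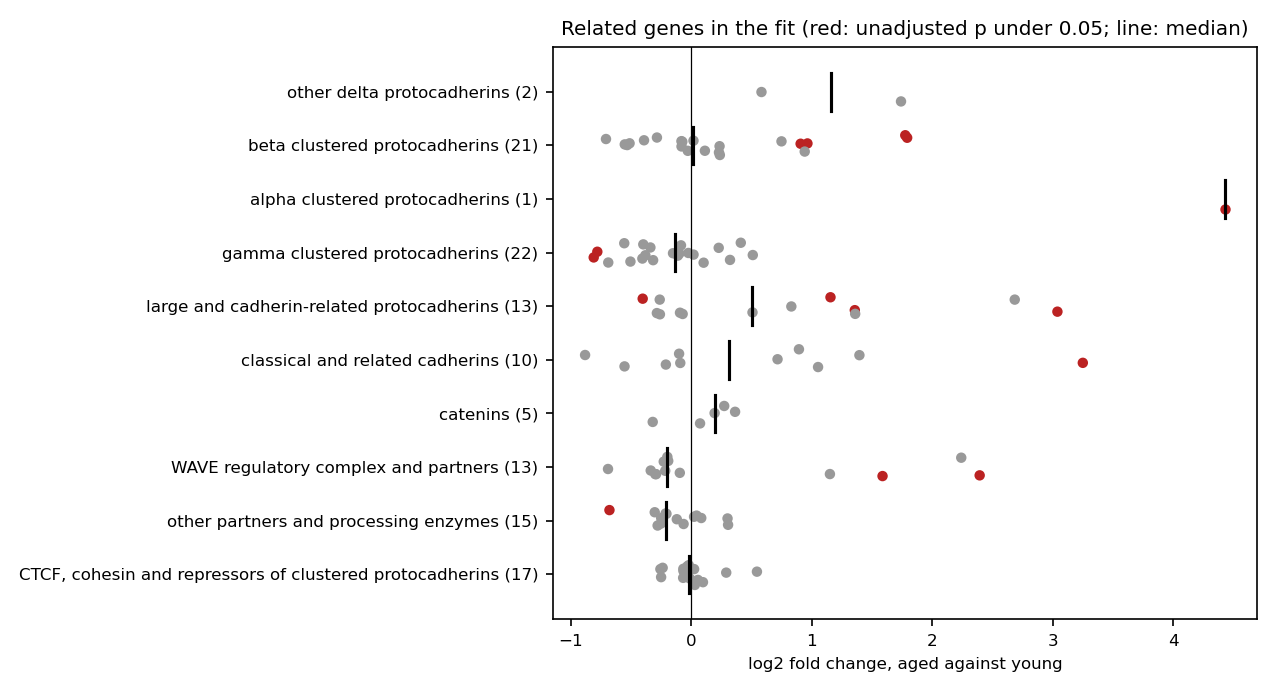
Log2 difference, aged against young, of the 119 related genes in the fit by list, with the number of genes in brackets, a black line at the median of each list and red for an unadjusted p under 0.05. Medians of the 8 lists with 5 genes or more lie between -0.20 and 0.51, and 15 genes are red.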

How the data were processed

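RNA-seq of sorted liver ECs from 3 young and 3 aged mice was analysed, with groups from the labels. The deposited read counts per gene were made by the authors from 75-base single-end HiSeq reads (CASAVA 1.8.2, TopHat2 2.1.0, mm9); the counting program is not given in the sources used here. The deposited FPKM values were made by the authors with Cuffnorm 2.2.1. In the files, 27 symbols are written as dates.

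Counts were fitted with edgeR 4.0.16 (TMM, quasi-likelihood test, R 4.3.3) on genes with at least 0.5 CPM in at least 1 sample, with Benjamini-Hochberg adjustment over 14612 genes, aged against young, and a threshold of 0.05. Scripts were tested on simulated data. Alternatives were DESeq2 1.42.0, its size factors, limma 3.58.1 on counts with quality weights and on FPKM, other filters, a term for the 2 kinds of library and leaving out each mouse. The labels do not tie samples beyond 1 mouse each, so p-values measure the spread between these mice. Replicates of one age differed by more than sampling noise (chi-square per degree of freedom at least 21.3). Library totals of 23001556 to 31651817 counts make 3 counts equal 0.0948 to 0.130 CPM, counting error only.

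The members and lists were chosen with earlier results of these data known. Named are the 8 members, up to 4 most abundant and 3 smallest-p genes of each list, Cdh5, Pecam1, the 2 genes nearest in pattern to each of the 3 most abundant members, and cell type markers; 2 of these genes are not reported here. The motif and window analyses used RefSeq (GRCm38.p6) and GENCODE (mm9) annotation; protein sequences were not used here.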

Additional observations from a re-analysis of the deposited data

How the results depend on the processing

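Against 0 genes past the adjusted threshold in edgeR, DESeq2 gave 639 (484 higher, 155 lower in aged ECs), limma on weighted counts 15 (13 and 2), the fit with no filter on low counts 4 (3 and 1), limma on log2(FPKM + 0.1) 2 and the fit with a term for the kind of library 2; leaving out each mouse gave 0 to 1, the 1 without the 131-week mouse. Of the related genes, 0 became 5 with DESeq2 (4 higher, 1 lower) and 1 with limma on weighted counts. Genes at an unadjusted p under 0.05 fell from 1847 to 1112 without the 136-week mouse and to 1114 without young replicate 2. The cause was not tested. Of 105 values for the members under the alternatives, 4 took the other sign: Pcdh18 was -0.21 without young replicate 3 and -0.21 without the 136-week mouse, and Pcdh19 was -0.89 with limma on weighted counts and -1.48 without the 136-week mouse. On log2(FPKM + 1), a scale that understates low genes, the difference was 1.73 for Pcdh9 and 1.01 for Pcdh7. Pcdh10 was near the counting floor, and the spread between mice was wide for Pcdh18 and Pcdh19. No paired analysis was possible because each library came from a different mouse and the labels tie no young mouse to an aged one.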
